A study of Homo sapiens with 8 samples.

Results

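The side population (SP) of the lung adenocarcinoma line H1975 was compared with its main population (MP) by 1 array each. SP cells pump the DNA dye Hoechst 33342 out of the cell, and MP cells keep it. H1975 is an established line with mutated EGFR, the receptor of epidermal growth factor. Its cells were stained for 90 min with the dye, sorted as SP or MP after dead cells had been removed by propidium iodide, and 100 ng of total RNA of each population was labelled for the array. The labels name no drug treatment in either population. The same was done in A549 and H460, which have mutated K-Ras, and in H1650, which has mutated EGFR, so that the series has 8 arrays in 4 lines. The 2 arrays of H1975 come from the same line, and nothing in the labels says how many sorts they stand for. Genes were taken where the brightest probe set had a log2 signal of at least 8 in either H1975 array. This left 9662 of the 19775 genes on the array that have a probe set of their own, or 48.9%. Of these, 9114 reached 8 in both arrays, 215 only in SP and 333 only in MP. At the edge of this limit, DICER1-AS1, TMEM63A and ZNF436-AS1 had MP signals between 8.001 and 8.004 and were kept, and SEMA6B, XAB2 and ZMIZ1-AS1 had 7.999 and were not.

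Efflux of the dye depends on transporters of the ABC family, above all ABCG2, which lies in the plasma membrane and exports many drugs as well. The SP is used in lung cancer as a functional way to enrich for stem-like, drug-tolerant cells where surface markers are not settled. Cells that divide carry a set of transcripts for chromosome condensation and the mitotic spindle that is low in resting cells, and epithelial cells that meet inflammatory signals make chemokines, antimicrobial proteins and protease inhibitors. These groups were followed here together with signalling, stress, metabolic and lineage genes.

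ABCG2, the efflux pump of the sort, had a log2 signal of 10.06 in SP and 8.89 in MP, a 2.25-fold difference in the direction of the sort. This rests on 1 probe set. Of 14 keratins 7 were above the limit, with keratin 18 (KRT18) at 13.65 in SP and 13.67 in MP. The epithelial adhesion molecule EPCAM was at 9.18 in SP and 8.68 in MP, while E-cadherin (CDH1) was near the limit, at 7.62 in SP and 8.08 in MP. The lung lineage factor NKX2-1 was below the limit on both, at 7.28 in SP and 7.33 in MP, as was the alveolar protease NAPSA, at 6.46 in SP and 6.22 in MP. Markers of other cell types were mostly below the limit, with 1 of 10 leukocyte markers above it (CD14, 8.75 in SP and 9.42 in MP), 3 of 10 fibroblast markers (COL1A1, COL1A2 and POSTN), 0 of 8 endothelial and 0 of 3 erythroid markers. The summed linear signal of the leukocyte markers was 782 in SP and 1035 in MP, and that of the fibroblast markers was 9081 in SP and 9455 in MP. The 3' over 5' log2 ratio of ACTB, a measure of RNA integrity, was 0.36 in SP and 0.52 in MP, and that of GAPDH was -0.18 in SP and -0.11 in MP. What share these differences have in the results that follow was not tested.

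Most genes differed little between the populations. The log2 ratio of SP over MP had a median of -0.01 and an SD of 0.39 over the 9662 genes, with the middle 50% between -0.19 and 0.18. At least 2-fold higher in SP were 131 genes (1.36% of those measured), and at least 2-fold lower were 106 (1.1%). With 1 array per population these ratios have no replicate and no p-value. The only support within H1975 is that several probe sets of a gene give the same ratio. Such probe sets share the RNA and the array, so that their agreement covers the measurement and not the biology. In addition, an array of sorted cells cannot tell apart a smaller share of cells with a transcript and less of it in each cell.

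**Figure D1:**
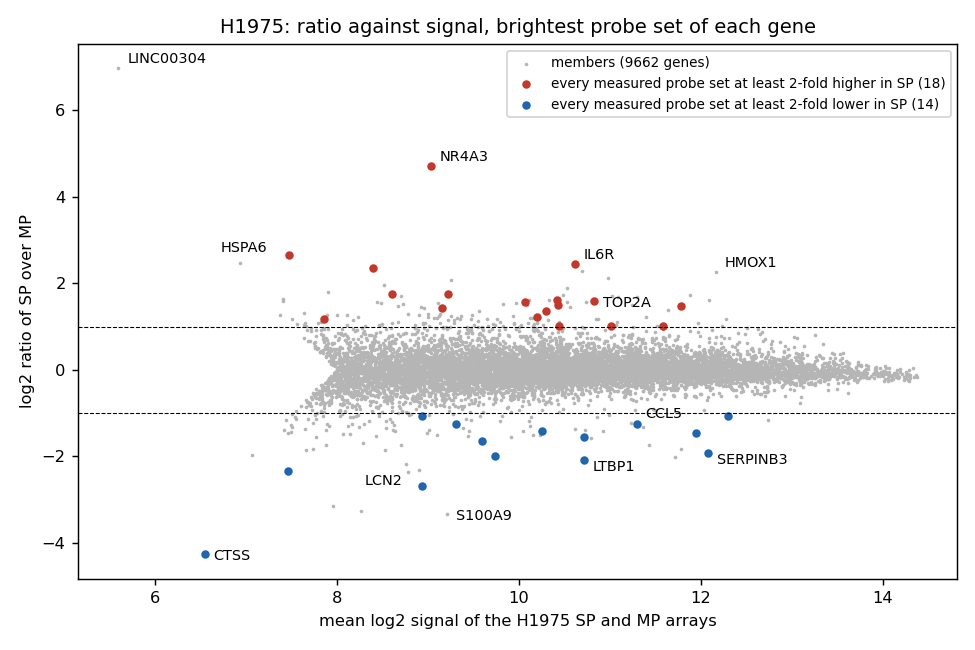
Log2 ratio of SP over MP in H1975 against the mean log2 signal of the 2 arrays, each point 1 of 9662 genes by its brightest probe set, with dashed lines at 2-fold. Red points are the 18 genes and blue points the 14 genes with every measured probe set at least 2-fold higher or lower in SP, and most other genes lie within the dashed lines.

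Agreement of probe sets grew with the size of the ratio. Of the 9662 genes, 4116 had at least 2 measured probe sets, meaning probe sets that reach 8 in either array, and 5546 had 1. The second brightest probe set had the same direction as the brightest in 62.7% of the 2643 genes with an absolute log2 ratio under 0.25, in 78.5% of 1043 genes between 0.25 and 0.5, and in 88.1% of 361 genes between 0.5 and 1. Among 69 genes that differed at least 2-fold by the brightest probe set, 67 had the same direction by the second and 43 (62.3%) were again at least 2-fold. Over all 4116 genes the paired ratios correlated with a Pearson r of 0.63, a description across genes that share the same 2 arrays. From their differences, the error of a single log2 ratio was 0.17 (robust SD, n = 4116 genes), and it was 0.24 where the second probe set had a signal between 8 and 9 and 0.12 where it was above 11. A ratio of 1 was thus larger than this spread at each of these signals, although single probe sets strayed further. No gene was at least 2-fold higher by 1 measured probe set and 2-fold lower by another.

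**Figure D2:**
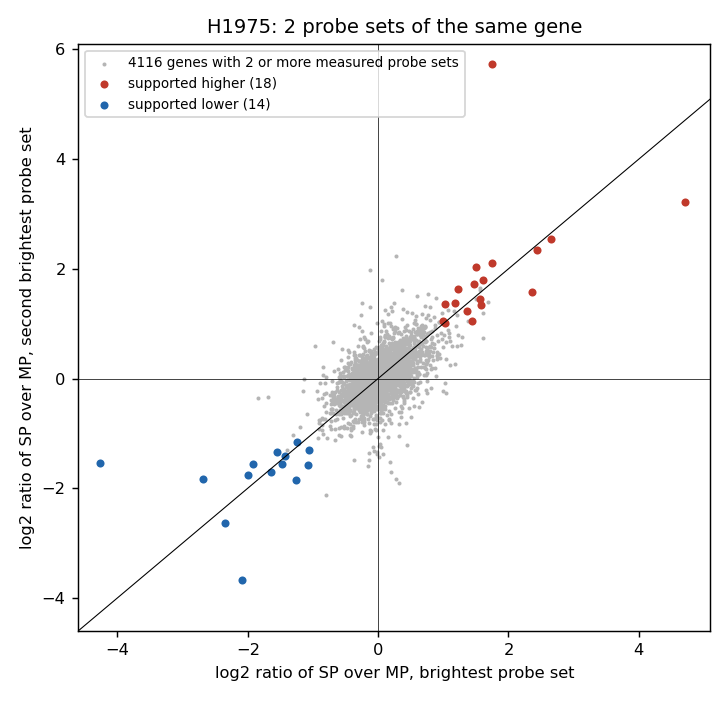
Log2 ratio of SP over MP by the brightest probe set (x axis) and by the second brightest probe set (y axis) of 4116 H1975 genes, with the diagonal of equal ratios. The 18 supported higher genes (red) and the 14 supported lower genes (blue) lie in the upper right and lower left, and grey points off the diagonal are genes whose probe sets differ.

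Genes were called supported where all of at least 2 measured probe sets were at least 2-fold in the same direction. This held for 18 genes higher in SP (0.437% of 4116) and 14 lower in SP (0.34%). Among the higher genes were mitotic genes, the nuclear receptor NR4A3, the cytokine IL11, the receptor chain IL6R, zinc finger genes and the enzymes CTH and GPCPD1. Among the lower genes were the chemokines CCL5 and CXCL5, the proteases CTSS, CASP1 and TMPRSS3, the protease inhibitors SERPINB3 and SERPINA1, and the matrix genes LTBP1 and LOX. Where probe sets counted only if they reached 8 in both arrays, 8 of the 18 and 7 of the 14 were supported. Of the higher genes, AP1S3, CDCA2, CTH, GPCPD1, HSPA6, IL11, NR4A3, PCLO, ZNF10 and ZNF253 were not. Of the lower genes, CHI3L1, CTSS, CXCL5, GSAP, HS6ST2, LTBP1 and PDZK1IP1 were not. In each, at least 1 probe set had passed the limit only through the population in which the gene is high. Their support thus rests in part on signals under the limit in the other population.

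The mitotic genes among the supported higher genes were TOP2A, HMMR, CDCA2, AURKA and NUSAP1. TOP2A, the topoisomerase that untangles chromosomes in mitosis and the target of etoposide and doxorubicin, had a log2 signal of 11.61 in SP and 10.03 in MP by its brightest probe set and 10.66 in SP and 9.31 in MP by its second. Both ratios were close, at 1.58 and 1.34. HMMR, a hyaluronan receptor that also binds the spindle, had 10.98 in SP and 9.62 in MP, and its ratios were 1.36 and 1.23. CDCA2, which brings protein phosphatase 1 to chromatin at the end of mitosis, had 9.87 in SP and 8.43 in MP, with ratios of 1.44 and 1.05. AURKA, the kinase of centrosome maturation, had 11.52 in SP and 10.50 in MP, with ratios of 1.02 and 1.36. NUSAP1, a spindle microtubule binder, had 12.08 in SP and 11.08 in MP, and its ratios of 1.00 and 1.04 were just past 2-fold. CDCA2 and NUSAP1 lost support with a pseudocount of 16 and NUSAP1 also with ratios centred along signal. Another TOP2A probe set, under the limit on both arrays (0.57 in SP and 4.40 in MP), gave -3.84.

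Of the 18 genes supported as higher, NR4A3 had the largest ratio by the brightest probe set. NR4A3 is an orphan nuclear receptor induced within the first hour of many stimuli. It had a log2 signal of 11.39 in SP and 6.68 in MP by its brightest probe set, a ratio of 4.71, and 9.62 in SP and 6.41 in MP by its second, a ratio of 3.21. The MP signals of both lay under the limit, so that the gene was measured in SP alone and the size of its ratio is imprecise, and another probe set that stayed under the limit in both (7.05 in SP and 6.50 in MP) gave a ratio of 0.55. IL6R, the receptor chain for interleukin 6, had 11.83 in SP and 9.39 in MP and ratios of 2.44 and 2.35, with signals above 8 in both populations. IL11, a cytokine of the same family, had 10.09 in SP and 8.34 in MP, with a ratio of 1.75. Its second probe set gave 8.35 in SP and 2.62 in MP, and that ratio of 5.73 rests on an MP signal far below the limit. HSPA6, a strictly inducible heat shock protein with a near-identical pseudogene that the probes may share, had 8.80 in SP and 6.15 in MP, with ratios of 2.65 and 2.55. DUSP10, a phosphatase of the stress kinases p38 and JNK, had 10.85 in SP and 9.29 in MP, with ratios of 1.56 and 1.46. ETS2, a transcription factor downstream of ERK, had 10.96 in SP and 9.93 in MP and 1.02 by both probe sets.

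The zinc finger genes ZNF10, ZNF331 and ZNF253 had every probe set past 2-fold. ZNF10, a KRAB repressor, had 9.48 in SP and 7.73 in MP, and its 3 ratios were 1.75, 2.10 and 1.79. ZNF331 had 12.52 in SP and 11.05 in MP, with ratios of 1.47 and 1.72. ZNF253 had 9.58 in SP and 7.22 in MP, with ratios of 2.36 and 1.58, and belongs to a family of closely related zinc finger genes whose probes can cross-react. The remaining higher genes were CTH, the enzyme that makes cysteine from cystathionine (11.23 in SP and 9.61 in MP, ratios 1.62 and 1.79), and GPCPD1, a glycerophosphocholine phosphodiesterase (11.18 in SP and 9.68 in MP, ratios 1.51, 2.03 and 1.70). PCLO, a presynaptic scaffold protein, had 10.81 in SP and 9.59 in MP and ratios of 1.23 and 1.63, and AP1S3, a subunit of a clathrin adaptor, had 8.45 in SP and 7.26 in MP and ratios of 1.19 and 1.37.

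The lower genes of the matrix and of heparan sulfate were LTBP1, HS6ST2, LOX and CHI3L1. LTBP1, which stores latent TGF-beta in the matrix, had 9.67 in SP and 11.75 in MP, a ratio of -2.08 or 4.24-fold, and its second probe set gave 5.26 in SP and 8.94 in MP, or -3.68. HS6ST2, which sulfates heparan sulfate chains, had 6.28 in SP and 8.63 in MP, with ratios of -2.35 and -2.63. LOX, which crosslinks collagen and elastin, had 11.77 in SP and 12.83 in MP, and its 3 ratios were -1.06, -1.31 and -1.13. CHI3L1, a secreted chitinase-like glycoprotein, had 8.68 in SP and 9.93 in MP, with ratios of -1.25 and -1.84.

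Protease inhibitors and metalloproteinases were also counted as lists, which hold SERPINA1 but neither SERPINB3 nor the supported proteases. Of 6 measured serine protease inhibitors 5 were below 0, with a median of -0.17. SERPINA1 and SLPI were the 2 at least 2-fold lower, while SERPINB8 was at -0.19 and SERPINB9 at 0.47. Of 11 metalloproteinases and their inhibitors 7 were below 0, with a median of -0.14 and none 2-fold. SERPINB3, an inhibitor of cysteine proteases, had 11.12 in SP and 13.04 in MP, with ratios of -1.92 and -1.55, which SERPINB4 may share because the genes are nearly identical. SERPINA1, alpha-1 antitrypsin, had 11.21 in SP and 12.68 in MP, with ratios of -1.47 and -1.56. CTSS, the lysosomal protease cathepsin S, had 4.41 in SP and 8.68 in MP. Its brightest probe set gave -4.27 with an SP signal near the bottom of the scale, and the other measured probe sets gave -1.55 and -1.97. TMPRSS3, a membrane-bound serine protease, had 8.77 in SP and 10.41 in MP, and its 3 ratios lay between -1.75 and -1.65. PDZK1IP1, a small membrane protein, had 7.59 in SP and 10.28 in MP, with ratios of -2.69 and -1.83.

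The remaining lower genes were CASP1, CCL5, CXCL5, KYNU and GSAP. CASP1, the protease that activates interleukin 1-beta, had 9.55 in SP and 10.97 in MP, and its 4 measured probe sets gave -1.42, -1.42, -1.67 and -1.51. The neighbouring gene CARD16 is nearly identical over part of CASP1 and may share this signal. CCL5, a T cell chemokine, had 10.67 in SP and 11.92 in MP, with ratios of -1.24, -1.16 and -1.24. CXCL5, a neutrophil chemokine, had 8.73 in SP and 10.73 in MP, with ratios of -1.999 and -1.77, and probes of the former may bind the closely related CXCL6 as well. KYNU, an enzyme of tryptophan breakdown, had 9.94 in SP and 11.49 in MP, with ratios of -1.55, -1.34 and -1.47. GSAP, an activator of gamma-secretase, had 8.40 in SP and 9.47 in MP, with ratios of -1.07 and -1.57.

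**Figure D3:**
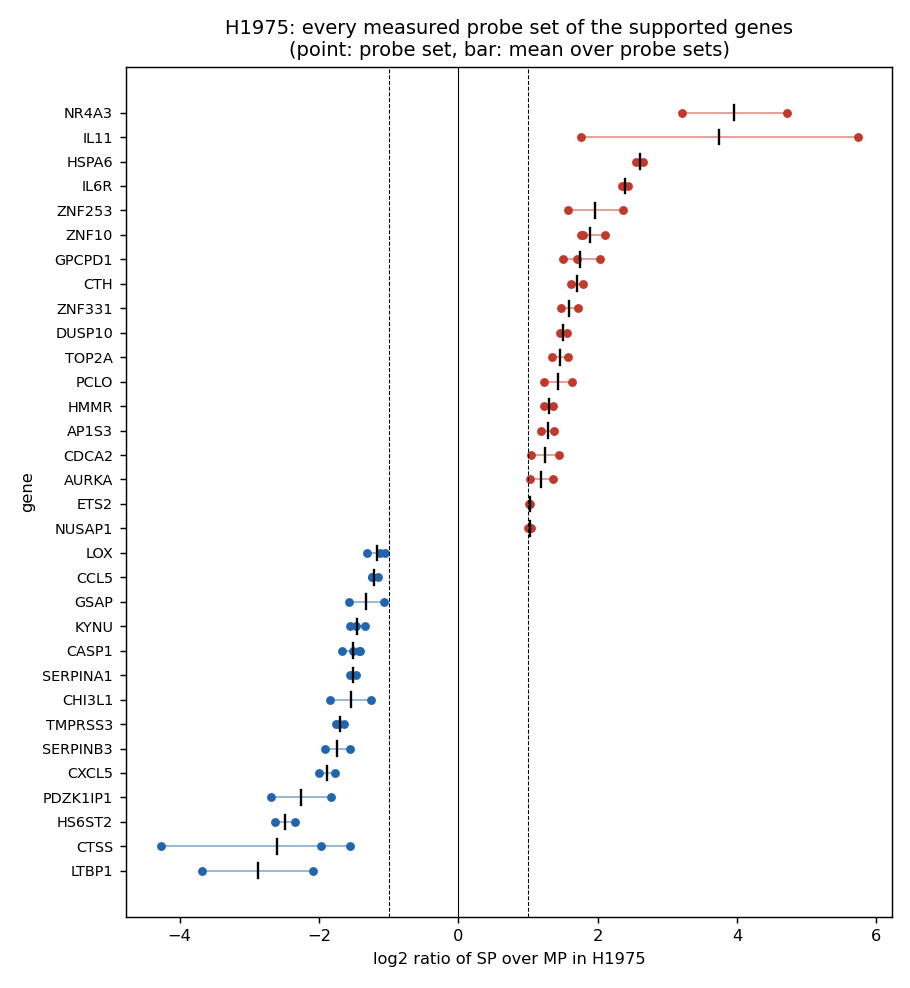
Log2 ratio of SP over MP for each measured probe set (points) of the 18 genes higher and the 14 genes lower in H1975 SP, with the mean over probe sets as a black bar and dashed lines at 2-fold. Probe sets of most genes lie close together, and IL11 and CTSS have the widest ranges.

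Genes with 1 measured probe set held the larger part of the 2-fold differences, 84 of the 131 higher and 84 of the 106 lower genes, and these have no support from a second probe set. The largest ratio, 6.97 for the long non-coding RNA LINC00304, came from a signal of 9.08 in SP against 2.11 in MP. Its other probe sets, under the limit on both arrays, went the opposite way, at -1.76 and -1.29. HMOX1, heme oxygenase and a target of NRF2, was bright in both populations, at 13.29 in SP and 11.04 in MP, or 4.78-fold higher. MT1M, a metallothionein, had 11.83 in SP and 9.55 in MP, KLHL15 had 12.05 in SP and 9.93 in MP, and C7orf57 had 8.16 in SP and 5.70 in MP. On the lower side stood S100A9 and S100A8, which together form the antimicrobial complex calprotectin. S100A9 had 7.53 in SP and 10.88 in MP, 10.1-fold lower, and S100A8 had 6.64 in SP and 9.90 in MP, 9.57-fold lower. Next came the neutrophil chemokine CXCL6 (6.38 in SP and 9.53 in MP), the iron-binding antimicrobial protein LCN2 (7.73 in SP and 10.06 in MP) and MAN1A1, a mannosidase of N-glycan processing (7.59 in SP and 9.97 in MP). All of these lower genes had SP signals under the limit of 8.

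Whole groups of genes were then counted, beside the 47.7% of all 9662 genes with a ratio above 0. Of the lists with at least 5 measured genes, the spindle and kinetochore list had the highest median. All 29 measured genes of the 30 in the spindle and kinetochore list were above 0, with a median of 0.90, and 9 of them were at least 2-fold higher. The largest ratios were those of NDC80, which ties microtubules to the kinetochore (9.88 in SP and 8.34 in MP), and of its partner SPC25 (9.68 in SP and 8.24 in MP). The mitotic kinesins KIF2C (10.12 in SP and 8.85 in MP) and KIF23 (9.69 in SP and 8.49 in MP) followed. The lowest were PTTG1, securin, at 0.16 and BUB3 at 0.05. In the 10 genes of this list with at least 2 measured probe sets, every probe set was above 0. Over all 4116 such genes this held for 1249, and 1242 had every probe set below 0.

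All 17 measured genes of the 18 for chromosome condensation were above 0 too, with a median of 0.60 and 3 at least 2-fold higher. Beside TOP2A these were NCAPH, a subunit of condensin (9.49 in SP and 7.96 in MP, 2.88-fold), and AURKB, the mitotic kinase that acts with survivin and INCENP (10.23 in SP and 8.88 in MP, 2.55-fold), each with 1 measured probe set. Another AURKB probe set, under the limit on both arrays (4.95 in SP and 6.87 in MP), gave -1.92. The core condensin subunits SMC2 and SMC4 had smaller ratios, 0.38 and 0.36. CDK1, the kinase that starts mitosis, had 11.80 in SP and 11.20 in MP by its brightest probe set, a ratio of 0.60, and its other 2 probe sets gave 1.51 and 1.72. Its brightest probe set thus gave the smallest difference, and CDK1 did not count as supported. Of 31 DNA replication genes 30 were above 0, with a median of 0.49 and none 2-fold, led by the origin licensing factor CDC6 (10.08 in SP and 9.11 in MP). Repair by recombination, with 10 genes, had a median of 0.66 and 9 above 0, among them BRCA1 at 0.74. The cyclins and CDK inhibitors of G1 had no common direction, with 9 of 17 above 0 and a median of 0.06. E2F1, which drives entry into S phase, was lower in SP by its brightest probe set, at -0.84 (8.48 in SP and 9.32 in MP), and higher by its other, at 0.21.

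The windows before the start of TOP2A, HMMR and NUSAP1, the supported mitotic genes with a window (AURKA and CDCA2 have none in the table), are shown because the CHR, the letters TTTGAA, and the CCAAT box are the known elements of late cell cycle promoters. Sequences are from RefSeq on GRCh38.p14 and hold the 250 bases before the start of transcription, with CHR and CCAAT matches on either strand in capitals. TOP2A is at chr17:40417897-40418146 on the minus strand, HMMR at chr5:163460382-163460631 on the plus strand and NUSAP1 at chr15:41332631-41332880 on the plus strand.
TOP2A: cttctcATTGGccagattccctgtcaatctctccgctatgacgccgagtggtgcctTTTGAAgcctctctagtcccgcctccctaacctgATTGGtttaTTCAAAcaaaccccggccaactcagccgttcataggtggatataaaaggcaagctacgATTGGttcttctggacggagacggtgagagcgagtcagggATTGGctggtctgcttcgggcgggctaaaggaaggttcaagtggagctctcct
HMMR: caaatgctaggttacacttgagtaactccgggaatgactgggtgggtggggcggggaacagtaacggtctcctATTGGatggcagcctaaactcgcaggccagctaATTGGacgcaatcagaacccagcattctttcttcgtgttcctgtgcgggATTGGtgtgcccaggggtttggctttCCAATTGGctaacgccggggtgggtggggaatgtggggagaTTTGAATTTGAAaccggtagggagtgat
NUSAP1: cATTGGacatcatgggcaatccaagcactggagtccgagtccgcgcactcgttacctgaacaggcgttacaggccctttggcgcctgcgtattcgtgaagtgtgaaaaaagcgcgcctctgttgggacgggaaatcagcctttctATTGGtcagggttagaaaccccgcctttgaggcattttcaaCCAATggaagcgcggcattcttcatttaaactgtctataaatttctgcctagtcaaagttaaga
The TOP2A window held 2 CHR and 4 CCAAT matches, the HMMR window 2 CHR and 5 CCAAT matches, of which a pair overlaps as CCAATTGG, and the NUSAP1 window 3 CCAAT matches. Over the window of 300 bases, which includes 50 bases after the start, a CHR was found in 76.0% of the 25 spindle and kinetochore genes with a window, in 66.7% of 15 condensation genes and in 3.57% of 28 replication genes, against 9.67% of the 8080 measured genes with a window and 15.4% of all 27305 windows. A CCAAT box was found in 76.0%, 66.7% and 57.1% of the same lists, against 37.5% of the measured genes and 35.7% of all windows. Among the 106 genes 2-fold higher in SP that have a window, 21.7% held a CHR, and among the 80 lower ones 18.8%.

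The signalling lists that follow receptor and ERK activity had medians above 0. Of 13 measured genes of ERK feedback, 12 were above 0 with a median of 0.63. This median came to 0.25 when genes under the limit of signal were counted. Of the 4 with at least 2 measured probe sets, 2 had every probe set above 0, against 1249 of all 4116 such genes. DUSP4, an ERK phosphatase, had 9.68 in SP and 8.59 in MP, and its 3 probe sets gave 1.09, 0.82 and 0.90. SPRY4, an inhibitor of receptor signalling, had 8.65 in SP and 7.71 in MP, and FOSL1, an AP-1 subunit, had a ratio of 0.74. Of 23 immediate early and AP-1 genes 17 were above 0, with a median of 0.15. NR4A3 and EGR3 (9.78 in SP and 8.49 in MP) were past 2-fold. The other NR4A receptors had smaller ratios, 0.80 for NR4A2 (13.66 in SP and 12.86 in MP) and 0.54 for NR4A1, and FOS was at 0.33, JUN at 0.02 and EGR1 at -0.11. The EGFR family and its ligands did not share a direction, with 3 of 6 above 0.

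NR4A3 and HSPA6 had the largest ratios by the brightest probe set among the 18 genes supported as higher, and their windows are shown for the elements by which such genes are known to be induced, the cyclic AMP response element and the heat shock element. NR4A3 is at chr9:99821635-99821884 and HSPA6 at chr1:161524290-161524539, both on the plus strand of GRCh38.p14, with TGACG (the core of the former element) and GAANNTTCNNGAA (the latter) in capitals on either strand.
NR4A3: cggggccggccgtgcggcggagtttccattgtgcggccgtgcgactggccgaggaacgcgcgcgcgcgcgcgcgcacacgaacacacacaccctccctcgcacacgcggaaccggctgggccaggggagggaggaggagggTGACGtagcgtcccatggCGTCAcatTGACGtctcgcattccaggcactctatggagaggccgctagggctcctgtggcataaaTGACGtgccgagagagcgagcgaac
HSPA6: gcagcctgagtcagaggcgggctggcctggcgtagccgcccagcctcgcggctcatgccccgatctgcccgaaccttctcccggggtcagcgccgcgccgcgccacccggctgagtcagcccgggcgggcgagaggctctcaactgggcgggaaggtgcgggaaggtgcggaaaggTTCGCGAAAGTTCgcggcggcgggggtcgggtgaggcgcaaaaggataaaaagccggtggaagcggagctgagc
The NR4A3 window held 4 TGACG matches, the nearest between 25 and 21 bases before the start, and 36.2% of the measured genes with a window held at least 1. The HSPA6 window held 1 heat shock element between 74 and 62 bases before the start, which 0.384% of the measured genes held.

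Stress groups differed from each other. Of 16 genes of the ATF4 response and serine synthesis 14 were above 0, with a median of 0.31. DDIT3, the stress transcription factor CHOP, was past 2-fold at 1.19 (9.91 in SP and 8.72 in MP), and the amino acid transporter subunit SLC3A2 was at 0.73. Of 11 heat shock genes 9 were above 0, with a median of 0.34. Among them were the co-chaperone DNAJB1 (13.11 in SP and 12.23 in MP, ratios 0.88 and 0.97) and HSPH1 (ratios 0.70 and 0.72). In this list 5 of the 8 genes with at least 2 measured probe sets had every probe set above 0. Over all genes it was 1249 of 4116. The chaperones of the unfolded protein response went the other way in number, with 11 of 16 below 0 and a median of -0.11. NRF2 targets were mixed, with 10 of 15 above 0, HMOX1 as their only 2-fold gene, and GCLM, a subunit of the glutathione-making enzyme, at 0.57, 1.07 and 1.23 by its 3 probe sets. Of 18 genes of the hypoxia response 13 were below 0, with a median of -0.23, and LOX was the only gene past 2-fold. For p53 targets, 7 of 16 were above 0 and AEN, a nuclease, was past 2-fold (9.48 in SP and 8.42 in MP).

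Zinc finger genes named ZNF formed the largest list. Of 294 measured, 193 (65.7%) were above 0, with a median of 0.14, and 26 were at least 2-fold higher against 3 lower. Those with the largest ratios after ZNF253 were ZNF267 (10.29 in SP and 8.21 in MP), ZNF675 (9.49 in SP and 7.54 in MP) and ZNF92 (11.47 in SP and 9.59 in MP), each by 1 probe set. Of the 87 with at least 2 measured probe sets, 37 had every probe set above 0 and 14 had every probe set below 0. Over all 4116 genes with at least 2 measured probe sets these counts were 1249 and 1242. Ribosome biogenesis genes were above 0 in 18 of 22 cases, with a median of 0.22. The cytosolic ribosomal proteins were below 0 in 35 of 37 cases, by little, with a median of -0.13 that came to -0.03 after quantile normalization and -0.04 after centring along signal. The CLK kinases and SR proteins of splicing were evenly split, with CLK1 at 1.49 (10.83 in SP and 9.34 in MP). Among genes of histone acetylation, EPC1, a subunit of the NuA4 acetyltransferase, had 11.31 in SP and 9.74 in MP, with ratios of 1.57, 1.64 and 0.47, and MSL2, of the complex that acetylates histone H4, had 10.00 in SP and 8.74 in MP.

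The lists of secreted and immune genes had medians below 0. All 5 measured mucin and secretory genes, of 19 on the array, were below 0, with a median of -1.56. Of these, LCN2 and WFDC2 had passed the limit of signal only through MP, where they are high, and WFDC2 gave the median. LCN2, SLPI, an inhibitor of neutrophil elastase (10.57 in SP and 12.30 in MP), and WFDC2 (6.99 in SP and 8.55 in MP) were past 2-fold. MUC1, a mucin of the apical membrane, had 10.03 in SP and 10.82 in MP, with ratios of -0.79 and -1.09. This median came to -0.79 with a signal limit of 7 and to -0.56 with none. Of 11 S100 genes 9 were below 0, with a median of -0.30. Of 22 interferon response genes 20 were below 0, with a median of -0.19, none was past 2-fold, and the lowest was the antiviral GTPase MX1 at -0.83 (7.19 in SP and 8.02 in MP). Of 15 genes of antigen presentation 13 were below 0, with a median of -0.21, among them TAPBP, which loads peptides (11.41 in SP and 11.99 in MP, ratios -0.58 and -0.63), and HLA-E at -0.55. Integrins and adhesion genes were below 0 in 12 of 16 cases, and L1CAM, an adhesion molecule, was past 2-fold (7.95 in SP and 9.13 in MP).

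NF-kB targets and chemokines did not move as a group. Of 17 genes 11 were below 0 and the median was -0.07, but CXCL5, CXCL1 and CCL5 were past 2-fold lower. CXCL1, a neutrophil chemokine with 1 measured probe set, had 10.86 in SP and 12.69 in MP. In the same list CXCL8 was at -0.02, CXCL3 at -0.04, IL6 at -0.07 and TNFAIP3, an inhibitor of NF-kB, at 0.27. The lower chemokines CXCL5, CXCL1 and CXCL6 have a shared element in their windows, and these are shown with the NF-kB site, GGGANTTTCC on either strand, in capitals. On GRCh38.p14, CXCL5 is at chr4:73998678-73998927 on the minus strand, CXCL1 at chr4:73869143-73869392 on the plus strand and CXCL6 at chr4:73836428-73836677 on the plus strand.
CXCL5: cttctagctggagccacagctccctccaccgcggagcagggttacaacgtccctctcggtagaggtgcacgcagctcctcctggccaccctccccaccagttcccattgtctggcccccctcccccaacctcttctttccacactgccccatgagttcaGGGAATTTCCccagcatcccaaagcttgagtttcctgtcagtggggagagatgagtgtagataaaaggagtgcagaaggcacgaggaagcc
CXCL1: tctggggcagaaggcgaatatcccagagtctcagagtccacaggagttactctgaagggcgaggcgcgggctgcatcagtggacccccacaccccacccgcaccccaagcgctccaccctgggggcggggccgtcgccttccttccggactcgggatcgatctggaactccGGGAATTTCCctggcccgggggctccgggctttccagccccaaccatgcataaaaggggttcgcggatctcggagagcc
CXCL6: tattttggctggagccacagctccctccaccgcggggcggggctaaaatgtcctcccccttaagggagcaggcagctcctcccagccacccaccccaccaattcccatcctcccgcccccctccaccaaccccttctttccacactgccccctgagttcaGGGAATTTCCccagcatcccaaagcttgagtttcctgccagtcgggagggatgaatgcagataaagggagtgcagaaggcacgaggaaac
The site was the same 10 letters in all of them and lay between 91 and 70 bases before the start. Of the 14 genes of the list with a window 8 (57.1%) held it, and only CXCL5 and CXCL1 among these 8 were 2-fold lower. The list does not hold CXCL6. Among all measured genes with a window 0.743% held the site, as did 5 of 80 genes 2-fold lower and 0 of 106 genes 2-fold higher.

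**Figure D4:**
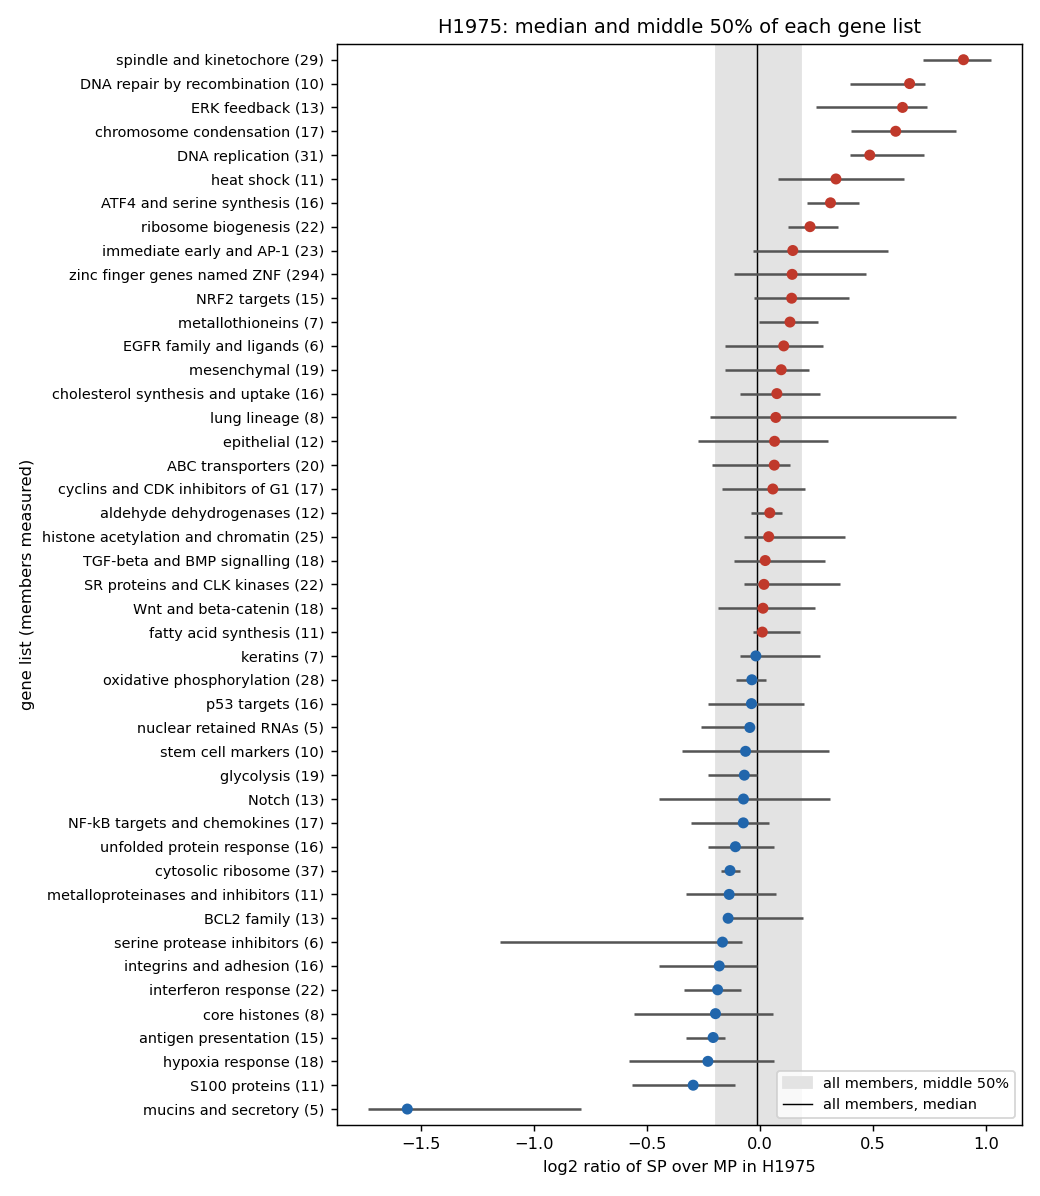
Median log2 ratio of SP over MP in H1975 (points) and the middle 50% of genes (lines) for each gene list, with the number of measured genes in brackets. The grey band is the middle 50% of all 9662 genes. The medians of the spindle, condensation, replication, recombination, ERK feedback, heat shock, ATF4 and ribosome biogenesis lists lie to the right of it, those of the mucin, S100, hypoxia, antigen presentation and core histone lists to the left, and that of the G1 cyclins and CDK inhibitors inside it.

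Other groups stayed near the median of all genes. ABC transporters were above 0 in 11 of 20 cases, with a median of 0.06, and ABCG2 was the only gene past 2-fold. ABCC3, which exports organic anions, had 9.71 in SP and 10.50 in MP, and its 3 probe sets gave -0.79, -2.13 and -0.90. Stem cell markers were above 0 in 4 of 10 cases. CD44, a hyaluronan receptor used to mark such cells, had 13.43 in SP and 13.50 in MP, and 8 of its 9 measured probe sets lay between -0.32 and -0.06, while the dimmest gave 0.81. CTNNB1, beta-catenin, had 12.40 in SP and 12.36 in MP, with ratios of 0.04 and 0.29. SOX9, a factor of distal lung progenitors, had 12.59 in SP and 11.66 in MP, with ratios of 0.93 and 1.04, and GATA6, a lung and endoderm factor, had 11.43 in SP and 10.26 in MP. Aldehyde dehydrogenases had a median of 0.04, Wnt genes 0.01, Notch genes -0.07, oxidative phosphorylation -0.04 and glycolysis -0.07. Cholesterol synthesis had a median of 0.08, with INSIG1, which holds back the sterol sensor, 2.83-fold higher by its brightest probe set (11.99 in SP and 10.49 in MP) and at 1.46 and 0.75 by the others. In the BCL2 family the pro-apoptotic BCL2L11 had 11.14 in SP and 9.53 in MP, but its 4 probe sets ran from 0.08 to 1.61. Such a spread within a gene was widest, apart from IL11 and CTSS, in JMJD1C, LIG3 and COX20, which were picked after their values were seen. LIG3, for example, had 3 ratios between -0.18 and -0.07 and 1 of 2.70 from a signal of 8.16 in SP and 5.46 in MP.

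The H1975 ratios were then set beside those of the other lines. With the labels as deposited, 131 genes higher and 106 lower in H1975 compare with 203 and 78 in A549, 109 and 25 in H460, and 36 and 121 in H1650, each by the same limit of signal in its own arrays. Supported genes numbered 32 and 9 in A549, 14 and 1 in H460, and 4 and 14 in H1650. For ABCG2, by 1 probe set, the ratio was 1.08 in A549, 0.36 in H460 and -0.70 in H1650. The H1650 array named SP was thus the lower in this pump, and its directions rest on that name. Of the 18 genes supported as higher in H1975, 13 were above 0 in A549, 16 in H460 and 1 in H1650, which becomes 17 with the sign of the H1650 ratio turned. Of the 14 supported as lower, 11 were below 0 in A549, 6 in H460 and 4 in H1650, the last of which becomes 10 when turned. The median of the spindle and kinetochore list was 0.90 in H1975, 0.65 in A549, 0.38 in H460 and -0.59 in H1650, and that of ERK feedback was 0.63, 0.17, 0.24 and -0.34 in the same order. The mucin and secretory median was -1.56 in H1975 and lay between -0.13 and 0.24 in the other lines. It covers the 5 genes that passed the limit in H1975, LCN2 and WFDC2 only through MP, so the choice of genes favours low ratios in H1975.

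**Figure D5:**
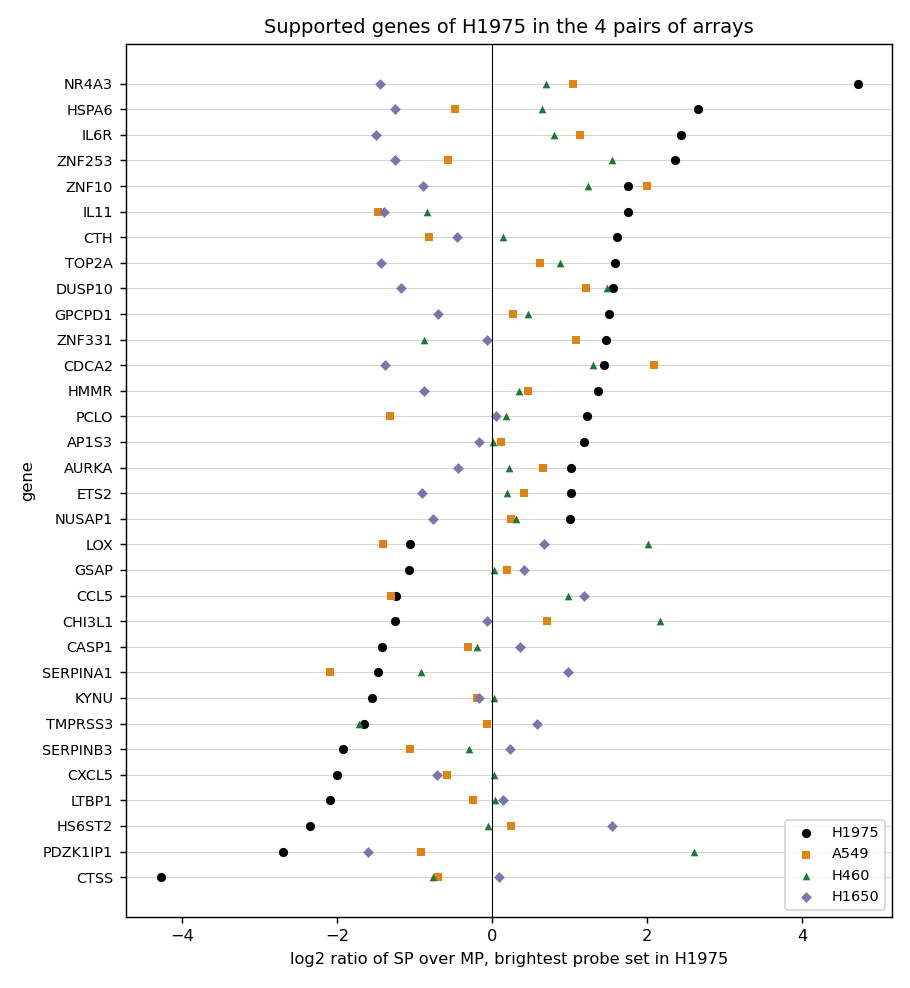
Log2 ratio of SP over MP in each of the 4 lines for the 32 supported genes of H1975, by the probe set that is brightest in H1975. The H1650 ratios of the higher genes (upper rows) lie below 0 in 17 of 18 cases, and of the 14 lower genes (lower rows) 11 lie below 0 in A549, 6 in H460 and 4 in H1650.

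Whether the H1975 ratio differs from the mean ratio of the other 3 lines was tested with limma. It takes the spread from those lines and draws it toward the spread of tested genes with similar signal. Of 12300 genes tested, 5 had an adjusted p under 0.05 (0.0407%), and 558 had an unadjusted p under 0.05. None of the 5 was among the 9662 genes measured in H1975. Of those, 9558 were tested, with 31 of the 32 supported genes among them, 361 had an unadjusted p under 0.05, and the lowest adjusted p by limma was 0.117. That gene was LTBP1, with a ratio of -2.08 in H1975 against a mean of -0.02 in the other lines, a difference of -2.06 with a standard error of 0.24, and its second probe set gave 3.20 in H460. Among the supported genes, CTSS followed with a difference of -3.82 (limma, SE 0.49, adjusted p = 0.121), then KYNU with -1.44 (limma, SE 0.20, adjusted p = 0.162) and IL11 with 2.99 (limma, SE 0.42, adjusted p = 0.162). By this probe set IL11 was at -1.47 in A549, at -0.84 in H460 and, as labelled, at -1.39 in H1650, while its second probe set gave 1.54 in H460. With the sign of H1650 turned its difference was 2.06 with an SE of 0.98 (limma, adjusted p = 0.731). For NR4A3 the difference was 4.62 with an SE of 0.90 (limma, adjusted p = 0.354), its ratios elsewhere being 1.04, 0.69 and -1.44. Without H1650 the difference of NR4A3 was 3.85 with an SE of 0.25 and passed (limma, adjusted p = 0.0274), and without A549 or H460 the adjusted p by limma was 0.303 or 0.713. For TOP2A it was 1.56 with an SE of 0.84 (limma, adjusted p = 0.997). With all lines in the fit as labelled, no supported gene of H1975 passed the test of this difference. With the sign of the H1650 ratio turned, an alternative chosen after seeing the data, 19 genes passed, among them the supported genes NR4A3 (difference 3.66, SE 0.31, limma adjusted p = 0.0158), LTBP1 (-1.97, SE 0.19, 0.0199), CTSS (-3.76, SE 0.42, 0.0418) and KYNU (-1.55, SE 0.18, 0.0473), and TOP2A came to 0.60 with an SE of 0.30 (limma, adjusted p = 0.731). All other genes that passed with the sign turned were under the limit of signal in H1975. The calls of supported genes thus changed with the sign given to the H1650 pair, while the differences of LTBP1, CTSS and KYNU changed little. Why the calls changed was not tested. A missed threshold with 1 line against 3 does not show that the lines act alike.

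By the mean of the 2 signals the changed genes were dimmer than the rest, in part by construction. The limit was set on the higher signal, and a large ratio lowers the mean below it. Of the higher genes 35 reached 8 only in SP, and of the lower genes 57 only in MP. The mean log2 signal of the 2 arrays had a median of 9.49 in the 131 higher genes and 8.65 in the 106 lower genes, against 10.32 in all 9662. Among the 1933 dimmest genes 46 were 2-fold higher and 63 lower, and among the 1933 brightest 7 and 5. Ratio and signal correlated with a Spearman rho of 0.05 over 9662 genes, ratio and gene length with 0.03 over 9655 genes, and ratio and GC content of the promoter window with -0.01 over the 8080 genes that have a window. By chromosome the median ratio ran from -0.09 on chromosome 3 (562 genes, 35.2% above 0) to 0.10 on chromosome 18 (147 genes, 61.9% above 0). Chromosome 19, which carries most of the zinc finger gene clusters, had 21 genes 2-fold higher and 5 lower among 680 genes.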

How the data were processed

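RNA of sorted SP and MP cells of 4 lung adenocarcinoma lines was hybridised to Affymetrix U133 Plus 2.0 arrays, 1 array per population and line. The authors deposited log2 signals for 54675 probe sets. GCOS 1.4 and MAS5 stand in the submitters' processing notes, while the study's methods give Expression Console, a log2 step and centring on the mean. No centring by gene is visible in the deposited log2 signals. On each array the linear signals had a mean of 500.1 after 2% had been trimmed at each end, and no further scaling was applied here. MAS5 signals have no floor, so ratios against dim signals are large. Array medians ran from 5.92 to 6.29 on the log2 scale, and the number of arrays limits the precision. Detection calls and scan dates are not used here.

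Gene names come from the annotation of the platform, in which 41097 probe sets have 1 gene symbol, 1801 several and 11777 none. Those with 1 symbol that are not controls gave 19775 genes. The brightest probe set by the higher of the 2 H1975 signals stood for a gene, and a probe set counted as measured at a log2 signal of at least 8 in either array. A ratio is the SP minus the MP log2 value. Populations have 1 array each, so ratios are described without a test. The difference of the H1975 ratio from the other lines was tested with limma 3.58.1 in R 4.3.3 (lmFit, eBayes with trend, Benjamini-Hochberg adjusted p under 0.05) on the 12300 genes whose mean signal was at or above 6.01, the median over probe sets; this fit takes the probe set that is brightest over the 8 arrays. Other steps used Python 3.11.15, and the scripts were tested on simulated data. Promoter windows are those of RefSeq (GRCh38.p14), the first listed for a gene, searched on both strands.

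Genes, gene lists and tests were chosen with earlier results of these data known. Named were up to 15 supported genes in each direction, the genes TOP2A, AURKB, NCAPH, CDK1, ABCG2, CD44 and CTNNB1, up to 4 members of a list by size of ratio, 5 genes in each direction with 1 probe set, those at the limit of signal and those past the limma threshold. AURKA, ETS2, NUSAP1 and further list members were named outside this rule after their values were seen. The alternatives were a floor of 32, a pseudocount of 16, quantile normalization, centring of ratios, other limits of signal and fold, no _s_at or _x_at probe sets, and the median over probe sets, to which the turned sign of H1650 was added after seeing the data.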

Additional observations from a re-analysis of the deposited data

Results flagged for a closer look

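The ratio of SP over MP differed between H1975 and the mean of the other 3 lines in 5 genes by limma, all of them below the limit of signal in H1975. ITGB8, an integrin subunit, had a log2 signal of -2.001 in H1975 SP and 4.96 in H1975 MP and differed from the other lines by -6.72 (SE 0.44, limma adjusted p = 0.0346). Its ratios were -0.78 in A549, -0.19 in H460 and 0.24 in H1650, where its signals were between 9.25 and 13.11. The ITGB8 probe set that is brightest in H1975 went the other way, with 5.23 in SP and 4.02 in MP. ADGRG2, a receptor, had 0.49 in H1975 SP and 5.00 in MP and differed by -4.61, and CA2, a carbonic anhydrase, had 0.89 in SP and 5.31 in MP and differed by -4.31. BEX3 had 2.70 in H1975 SP and 5.05 in MP and differed by -2.41, and CPNE4 had 5.09 in SP and -0.28 in MP and differed by 5.33. The limma adjusted p was 0.0483 for each of these 4 genes. ITGB8, CA2 and BEX3 had signals between 8.88 and 14.03 in the arrays of the other lines. After raising all linear signals to at least 32, none of the 5 kept its call, and ITGB8 differed by 0.24.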

How the results depend on the processing

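Counts of 2-fold genes followed the limit of signal. The 106 lower genes became 181 with a limit of 7, 65 with a limit of 9 and 49 where both arrays had to reach 8, and without a limit 1281 genes were higher and 2022 lower. With 1.5-fold in place of 2-fold 510 were higher and 411 lower, and with 3-fold 27 and 24. Supported genes numbered 11 higher and 7 lower with 8 in both arrays (of the original genes 8 and 7), 66 and 121 without a limit (of the original genes 13 and 12, with AURKA, ETS2, NR4A3, PCLO, TOP2A, CHI3L1 and SERPINA1 lost), 6 and 3 without probe sets ending in _s_at or _x_at (where 1659 genes had at least 2 measured probe sets), 101 and 43 at 1.5-fold, and 6 and 5 at 3-fold. NR4A3 was not supported with a limit of 7, because this probe set of 7.05 in SP then counted. A floor, a pseudocount, quantile normalization, both centrings and the median over probe sets moved no count by over 1.5 times, all 14 supported lower genes were shared by each of these, and of the higher ones CDCA2 and NUSAP1 were lost with the pseudocount and NUSAP1 with centring along signal. Of the gene list medians only that of the mucin and secretory list moved by at least 0.585, to -0.79 with a limit of 7 and -0.56 without one. Most list medians were themselves smaller than 0.585, and some of those near 0 changed sign. The G1 cyclins and CDK inhibitors went from 0.06 to -0.16 without _s_at or _x_at probe sets, and the ABC transporters from 0.06 to -0.07 without a limit. The 5 genes that differed from the other lines became 0 with a floor, a pseudocount, quantile normalization or no trend, and 1 with no filter; leaving out 1 other line gave between 0 (H460) and 2 (H1650, with ITGB8 and NR4A3), and 1 without A549 (ITGB8). With the sign of the H1650 ratio turned, chosen after seeing the data, it was 19. The difference of ITGB8 turned to 0.24 with a floor of 32. No cause of these shifts was tested. No paired analysis was possible because each population of H1975 has 1 array; the limma fit across lines uses the ratio within each line. Genes with signals under 8 in either population, such as CTSS and LINC00304, have imprecise ratios: with the floor these came to -3.68 and 4.08.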
